A study of Mus musculus with 27 samples.

Results

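The Wnt antagonists and Wnt target genes Nkd1, Nkd2, Axin2, Lef1, Sfrp1, Sfrp2, Dkk2 and Dkk3 were followed in mouse embryonic fibroblasts with and without PKBalpha, the protein kinase encoded by Akt1. The 8 genes were listed by symbol, and every probe set annotated to 1 of these symbols alone was taken, which gave 21 of the 45037 probe sets that are not controls and 8 of 18193 genes. Nkd1 was selected on the difference in its response to irradiation between the lines, measured on these same arrays. Its values are therefore a description without a test, and all counts below are over the other 7 genes. Those 7 were also listed with earlier results of these data known. Their counts beside the share of all genes describe them and do not test the set.

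The study set 3 cell lines side by side. The line labelled KO lacks PKBalpha, the line labelled R is described as the knockout with PKBalpha put back, and the line labelled WT is wild type. Gamma radiation was given at 10 Gy, and every line was sampled untreated and also 4 h or 24 h later. There were 3 biological replicates in each of the 9 groups, on 27 Affymetrix arrays. All cells were female, at passage 45, and grown in DMEM with 10% serum for 24 h before irradiation. Each genotype was 1 line, so every p-value covers the spread among cultures of a line, and other lines of the genotype may differ. How long the untreated cells stayed in culture is not in the labels, and culture time and irradiation cannot be told apart.

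In the canonical Wnt pathway a secreted Wnt ligand binds a Frizzled receptor and the co-receptor Lrp5 or Lrp6, Dishevelled then holds back the destruction complex, and beta-catenin builds up and acts with TCF and LEF factors in the nucleus. Secreted Sfrp proteins bind Wnt ligands, Dickkopf proteins bind the Lrp co-receptors, and the Nkd proteins bind Dishevelled inside the cell. Axin2, Nkd1 and Lef1 are known as target genes of the pathway, so part of its brake is made by the pathway itself.

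The values below are the authors' linear intensities, which have no unit, from the brightest probe set of each gene over all arrays. A group level is the geometric mean of its 3 arrays, and a difference is on the log2 scale with its standard error (SE). The background was set at an intensity of 48.3, the highest value of the Y-linked probe sets, whose genes female cells lack. Where 1 of the groups compared lay below it, each array of that group counted as the higher of its own value and the background, and the fold is given as "at least". Differences were tested with limma across all genes, two-sided, and a gene was called at a Benjamini-Hochberg adjusted p below 0.05.

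Akt1 was read first as a check of the labels. Over the 9 arrays of a line it ran from 2.35 to 65.5 (median 24.9) in KO cells and from 6.25 to 41.9 (median 28.0) in R cells, against 2981 to 4546 (median 3308) in WT cells. The line labelled R thus did not carry Akt1 transcript at the WT level on this probe set, and it is called R here only by its label. An added transcript without the region this probe set reads would not be seen, so whether R cells made PKBalpha was not tested. Of 7 fibroblast markers, 7 lay above background in each line. The 3 mesothelial markers Msln, Upk3b and Wt1 had line means between 11.3 and 26.6 in KO cells and between 7.85 and 9.77 in R cells, with 0 of 3 above background in either, against 509.6 to 13587 and 3 of 3 in WT cells. On 5 arrays the 3 prime to 5 prime ratio of the Gapdh and actin control probe sets stood apart (Gapdh log2 ratio from -0.187 to 0.160, against -0.466 to -0.298 on the 22 others). These arrays were untreated KO replicate 2, untreated R replicate 1, R 24 h replicate 2, untreated WT replicate 2 and WT 4 h replicate 0, and the results that rest on them are given below with and without them.

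Nkd1 encodes a cytoplasmic protein that binds Dishevelled and damps canonical Wnt signalling, and it is itself a Wnt target gene. In KO cells its intensity was 42.5, 27.6 and 34.8 untreated, 40.5, 29.9 and 51.5 at 4 h, and 30.2, 36.1 and 24.9 at 24 h. In R cells it was 31.4, 22.2 and 13.9 untreated, 42.3, 47.1 and 40.1 at 4 h, and 37.0, 27.3 and 14.6 at 24 h. In WT cells it was 449.8, 319 and 322 untreated, 80.3, 84.3 and 101 at 4 h, and 203, 298 and 260.4 at 24 h. Every WT array lay above every KO and R array, and the WT groups did not overlap each other, with untreated cells highest and 4 h cells lowest. The KO and R group levels all lay below background, from 21.3 to 43.1, and their order has no meaning.

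The WT level of Nkd1 at 4 h was 88.1, against 359 untreated, which is 4.08-fold lower (log2 difference -2.03 ± 0.31 SE). At 24 h it was 251, against 359 untreated (-0.52 ± 0.31). In KO cells the differences were 0.20 at 4 h and -0.20 at 24 h, and in R cells 1.02 and 0.20, each between levels below background that give no fold. The 4 h response thus differed by 2.23 ± 0.44 between KO and WT and by 3.04 ± 0.44 between R and WT, which are the values Nkd1 was picked for. Untreated KO and untreated R levels were each at least 7.43-fold below untreated WT, so a fall of the WT size could not have been measured in KO or R cells. The WT difference at 4 h was -2.04 when the 5 arrays that stand apart were left out.

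The 4 Nkd1 probe sets did not all show this. The probe set ranked 4 by mean intensity read 188, 199.8 and 85.8 in untreated WT cells, 46.5, 39.8 and 84.0 at 4 h and 143, 179.8 and 123 at 24 h, and its KO and R group levels ran from 5.87 to 26.0. The other 2 had WT group levels between 22.8 and 60.4, at or near background in every line. With the mean of all 4 probe sets the WT difference was -1.21 at 4 h and 0.07 at 24 h, and the 4 h response differences were 1.51 for KO and 0.97 for R against WT.

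Sequences before an annotated start of Nkd1, Axin2 and Nkd2 are shown because Nkd1 and Axin2 stood high in WT cells and Nkd2 stood low there. Each is the 250 bases before a start given by RefSeq in mouse build GRCm38.p6, 5′ to 3′ on the gene's strand, with CG dinucleotides in capitals. The Nkd1 window is chr8:88527383-88527632 on the plus strand, the Axin2 window is chr11:108920099-108920348 on the plus strand, and the Nkd2 window is chr13:73847632-73847881 on the minus strand. The Nkd1 and Axin2 windows lie inside the annotated span of their genes, and the Nkd2 window lies before it.
Nkd1: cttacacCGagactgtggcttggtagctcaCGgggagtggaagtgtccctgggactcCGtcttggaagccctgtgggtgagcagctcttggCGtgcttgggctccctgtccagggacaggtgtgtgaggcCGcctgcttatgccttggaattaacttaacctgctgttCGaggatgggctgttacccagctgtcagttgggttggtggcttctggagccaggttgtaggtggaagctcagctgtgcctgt
Axin2: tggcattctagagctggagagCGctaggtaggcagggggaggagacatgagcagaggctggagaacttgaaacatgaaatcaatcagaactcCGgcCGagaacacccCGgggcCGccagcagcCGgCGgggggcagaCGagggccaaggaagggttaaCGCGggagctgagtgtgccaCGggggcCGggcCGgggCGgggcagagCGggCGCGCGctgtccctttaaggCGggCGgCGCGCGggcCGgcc
Nkd2: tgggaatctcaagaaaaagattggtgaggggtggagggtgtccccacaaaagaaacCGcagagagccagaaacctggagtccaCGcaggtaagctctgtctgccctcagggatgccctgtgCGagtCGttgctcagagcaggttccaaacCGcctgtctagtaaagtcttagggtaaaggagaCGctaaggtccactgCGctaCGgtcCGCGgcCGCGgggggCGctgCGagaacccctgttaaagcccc
The Axin2 window held 24 CG dinucleotides, the Nkd2 window 14 and the Nkd1 window 6, where the median of all 32851 windows was 6. The TCF and LEF binding motif was searched as CTTTGAA or CTTTGAT on both strands. It was in 0 of 9 windows found for 6 of the 8 genes (Lef1 had 4 windows, and Sfrp1 and Dkk3 had none in the table), and in 7.48% of all windows. These letters are a description of 250 bases and not a map of where factors bind.

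Nkd2, the second Naked cuticle gene and also a Dishevelled-binding antagonist, had the opposite order of lines. Its KO intensity was 127, 183 and 322 untreated, 178, 169 and 190.5 at 4 h, and 206, 171 and 267 at 24 h. Its R intensity was 105, 56.1 and 56.7 untreated, 17.5, 50.2 and 51.2 at 4 h, and 65.2, 63.7 and 116 at 24 h. Its WT intensity was 4.47, 43.5 and 6.69 untreated, 58.5, 3.94 and 55.3 at 4 h, and 30.0, 26.3 and 6.33 at 24 h. All 9 KO arrays lay above every R and WT array, and 7 of the 9 WT arrays lay below background. In GRCm38.p6 Nkd2 maps to chr13:73818534-73847631 and Nkd1 to chr8:88521342-88594887.

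Axin2 encodes a scaffold of the destruction complex and is the widely used readout of canonical Wnt signalling. It read 70.7, 37.2 and 44.4 in untreated KO cells, 45.3, 48.8 and 36.9 at 4 h, and 31.2, 38.6 and 40.6 at 24 h. R cells read 80.0, 82.7 and 36.6 untreated, 59.3, 57.3 and 41.1 at 4 h, and 42.9, 41.1 and 81.1 at 24 h. WT cells read 327, 231 and 117 untreated, 113, 74.4 and 132 at 4 h, and 206, 258 and 316 at 24 h. The KO and R ranges overlapped each other and reached below background, and 8 of the 9 WT arrays lay above all of them, WT 4 h replicate 1 being the exception.

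Lef1 encodes a nuclear factor that brings beta-catenin to DNA. KO cells read 214, 165 and 253 untreated, 281, 249 and 293 at 4 h, and 249.5, 168 and 283 at 24 h. R cells read 158, 254 and 186 untreated, 241, 195 and 216 at 4 h, and 209, 238 and 252 at 24 h. WT cells read 162, 118 and 107 untreated, 87.1, 111 and 176 at 4 h, and 121, 247 and 148 at 24 h. Lef1 was above background on all 27 arrays, the KO and R ranges overlapped, and WT reached lower.

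Sfrp1 encodes a secreted Frizzled-related protein that binds Wnt ligands. Its KO intensity was 120.2, 109 and 301 untreated, 90.0, 76.6 and 88.1 at 4 h, and 107, 113 and 167 at 24 h. In R cells it was 40.8, 25.2 and 41.2 untreated, 37.2, 27.1 and 6.82 at 4 h, and 29.0, 24.4 and 36.9 at 24 h. In WT cells it was 1416, 2606 and 2601 untreated, 1556, 687 and 701 at 4 h, and 2069, 954 and 971 at 24 h. The lines formed 3 steps that did not overlap, with every WT array above every KO array and every KO array above every R array.

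Sfrp2, a second secreted Frizzled-related gene, did not follow Sfrp1. KO cells read 428, 537 and 412 untreated, 339, 320.4 and 321 at 4 h, and 339, 453 and 504 at 24 h. R cells read 149, 185 and 181 untreated, 92.1, 143 and 144 at 4 h, and 195, 152 and 116 at 24 h. WT cells read 107, 238 and 117 untreated, 256, 188 and 116 at 4 h, and 289, 133 and 192 at 24 h. Each KO array lay above each R and WT array, while the R and WT ranges overlapped.

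Dkk2 encodes a Dickkopf protein that binds Lrp5 and Lrp6. It read 29.0, 2.96 and 34.4 in untreated KO cells, 22.8, 8.80 and 5.67 at 4 h, and 27.7, 24.9 and 30.5 at 24 h. R cells read 12.7, 30.1 and 5.57 untreated, 35.5, 26.9 and 9.98 at 4 h, and 18.0, 32.8 and 8.22 at 24 h. WT cells read 123, 113 and 57.3 untreated, 42.8, 33.3 and 12.9 at 4 h, and 97.5, 152 and 170.5 at 24 h. None of the 18 KO and R arrays passed the background, and in WT cells the 3 arrays at 4 h also lay below it.

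Dkk3 encodes a divergent Dickkopf protein whose place in Wnt signalling is less settled. KO cells read 334, 371 and 202 untreated, 182, 232 and 174 at 4 h, and 222, 332 and 390.1 at 24 h. R cells read 201, 95.3 and 258 untreated, 129.9, 118 and 137 at 4 h, and 245, 280.3 and 138 at 24 h. WT cells read 1039, 731 and 818 untreated, 259, 525 and 391 at 4 h, and 461, 741 and 748 at 24 h. Dkk3 was above background everywhere, and its 3 untreated WT arrays were above every KO and R array.

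**Figure D1:**
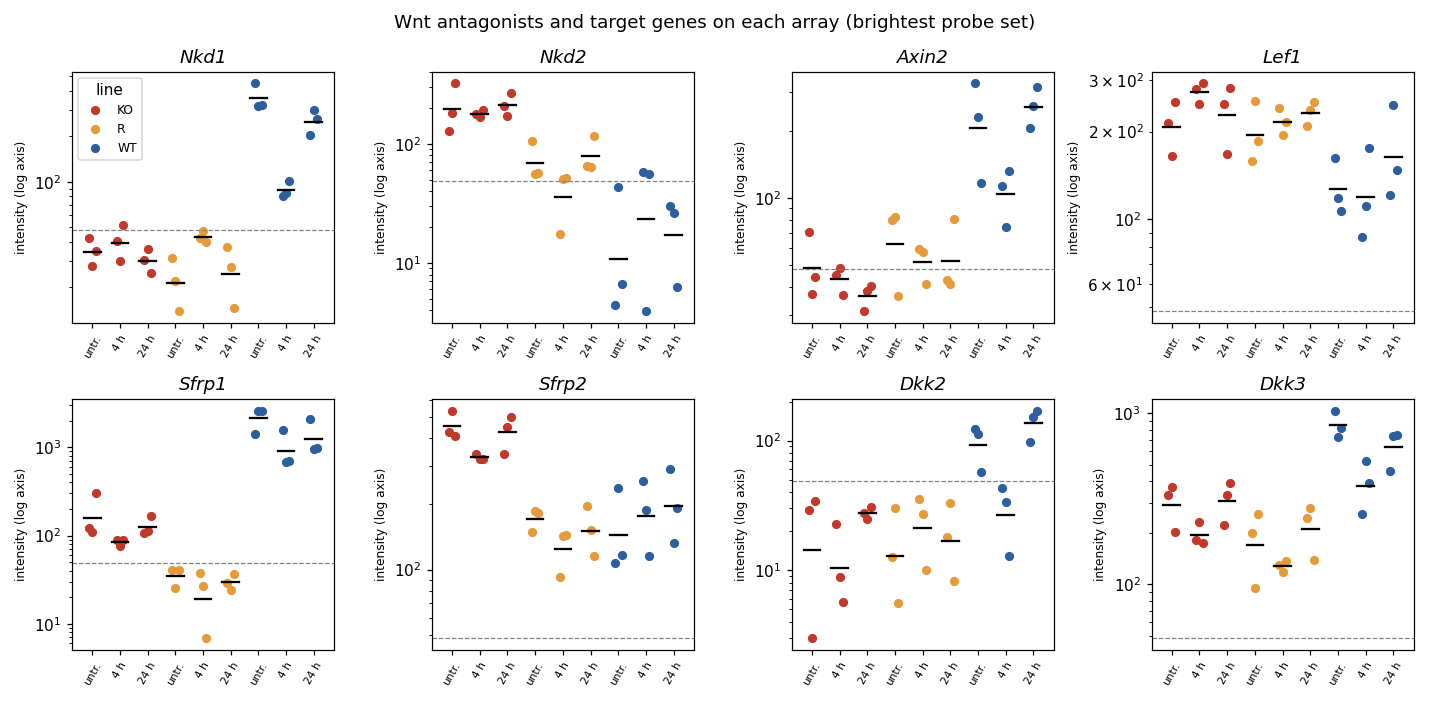
Intensity on a log axis of each of the 8 genes on the 27 arrays, by line (KO, R, WT from left to right) and by time (untreated, 4 h, 24 h); points are arrays, bars are geometric means of 3 arrays and the dashed line is the background of 48.3. Nkd1 and Sfrp1 stand high in WT cells at all times, Dkk2 does so untreated and at 24 h, Nkd2 and Sfrp2 stand high in KO cells, and the WT points of Nkd1 dip at 4 h.

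The untreated lines were compared next, which shows how the lines differ before radiation. In untreated KO against untreated WT cells, 6 of the 7 genes were called, 2 higher and 4 lower, where 17.6% of all 18193 genes were called (7.77% higher and 9.83% lower). The median difference of the 7 was -1.54, against 0.00 to 2 decimals over all genes. Nkd2 and Sfrp2 were higher in KO cells, and Axin2, Sfrp1, Dkk2 and Dkk3 were lower. In untreated R against untreated WT cells, 5 of the 7 were called, 1 higher and 4 lower, where 18.8% of all genes were called (9.39% in each direction), and the median of the 7 was -1.73 against 0.06 over all genes. Both comparisons share the untreated WT arrays. Because the 7 genes were listed with earlier results of these data known, these counts and medians are a description. Mesothelial markers were at background in KO and R cells and far above it in WT cells, and their part in these differences was not tested. In these bulk samples, fewer cells of a type and less RNA per cell cannot be told apart.

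Sfrp1 was 158 in untreated KO cells and 34.8 in untreated R cells, against 2125 in untreated WT cells. In KO it was 13.5-fold lower (-3.75 ± 0.52 SE, limma adjusted p = 2.4e-05). In R the gap was at least 44-fold (-5.93 ± 0.52, limma adjusted p = 5.8e-08). Dkk3 was 293 in KO and 170.2 in R, against 853 in WT, so 2.91-fold lower in KO (limma adjusted p = 0.0041) and 5.01-fold lower in R (limma adjusted p = 7.9e-05). These 4 calls also held without the 5 arrays that stand apart, with adjusted p-values from 1.2e-05 to 0.0047.

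Axin2 was 48.9 in untreated KO cells and 62.4 in untreated R cells, against 207 in untreated WT cells. It was 4.23-fold lower in KO (-2.08 ± 0.38, limma adjusted p = 0.00043) and 3.32-fold lower in R (-1.73 ± 0.38, limma adjusted p = 0.0023). Leaving out the 5 arrays gave -2.42 and -2.34, and both calls held. With only the compared arrays fitted Axin2 was not called in KO (adjusted p = 0.065) or R (0.14), nor in R with the mean of its probe sets (0.061). Dkk2 was 14.4 in KO and 12.9 in R, against 92.9 in WT, at least 1.92-fold lower in each (limma adjusted p = 0.027 and 0.018, and 0.01 and 0.0078 without the 5 arrays). The Dkk2 call in KO was lost without untreated KO replicate 1 (adjusted p = 0.2), WT replicate 0 (0.09) or WT replicate 1 (0.08). In R it was lost without untreated R replicate 2 (adjusted p = 0.1), WT replicate 0 (0.067) or WT replicate 1 (0.059).

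Nkd2 was 196 in untreated KO cells, against 10.9 in untreated WT cells, at least 4.05-fold higher (4.16 ± 0.89, limma adjusted p = 0.002, and 0.043 without the 5 arrays). In untreated R cells it was 69.4, at least 1.44-fold above WT (2.67 ± 0.89, limma adjusted p = 0.041). The R call was lost without the 5 arrays (adjusted p = 0.15). It was also lost without any 1 of untreated R replicate 0 (0.13), 1 (0.062) or 2 (0.072), or of untreated WT replicate 0 (0.19) or 2 (0.13). Sfrp2 was 456 in KO, against 144 in WT, 3.17-fold higher (1.66 ± 0.33, limma adjusted p = 0.00095, and 0.01 without the 5 arrays), and 171 in R, with a difference of 0.25 ± 0.33 from WT that was not called. With only the compared arrays fitted, the calls in KO of Nkd2 (limma adjusted p = 0.067) and Sfrp2 were lost.

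Lef1 was not called in either untreated comparison. Its level was 208 in KO and 195 in R, against 127 in WT (0.71 ± 0.28, limma adjusted p = 0.095, and 0.62 ± 0.28, limma adjusted p = 0.15). In KO it passed with quantile normalization (0.91, adjusted p = 0.025), when its probe sets were averaged (0.76, 0.048), and with arrays set to 1 common median (0.93, 0.022), which shifts the median over all genes to 0.22 as well.

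KO and R, the lines without WT levels of Akt1 on its probe set, were compared as well. In untreated R against untreated KO cells, 2 of the 7 genes were called, both lower. Of all genes 3.79% were called (2.18% higher and 1.62% lower). Sfrp1 was at least 3.27-fold lower in R (-2.18 ± 0.52, limma adjusted p = 0.022) and Sfrp2 was 2.67-fold lower (-1.41 ± 0.33, limma adjusted p = 0.018). Sfrp1 was not called without the 5 arrays that stand apart (-1.48, adjusted p = 0.2), and Sfrp2 was (adjusted p = 0.044). Sfrp1 was also lost without untreated KO replicate 2 (adjusted p = 0.099) or untreated R replicate 1 (0.092) or 2 (0.053). Sfrp2 was lost without untreated KO replicate 0 (0.051) or 1 (0.08) or untreated R replicate 0 (0.062) or 2 (0.053). At 4 h and 24 h both genes were again lower in R than in KO cells, with differences of -2.16 and -2.09 for Sfrp1 and -1.40 and -1.50 for Sfrp2 and limma adjusted p-values from 0.011 to 0.025. Those 4 calls also held without the 5 arrays. The R levels of Sfrp1 were below background at 4 h (19.0) and 24 h (29.7), so its differences at these times are not measured folds.

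The lines were also compared at each time after irradiation. At 4 h, 4 of the 7 genes were called in KO against WT cells, 2 higher and 2 lower, where 14.8% of all genes were called (5.9% higher and 8.86% lower). At 24 h, 5 were called, 2 higher and 3 lower, where 18.7% were called (8.6% higher and 10.1% lower). R against WT cells gave 3 calls at 4 h, 1 higher and 2 lower, where 16.1% of genes were called (6.99% higher and 9.07% lower), and 4 at 24 h, all lower, where 20.7% were called (10.9% higher and 9.78% lower). R against KO cells gave 2 calls, both lower, at each time, where 3.38% of genes were called at 4 h (1.86% higher and 1.52% lower) and 5.27% at 24 h (3.17% higher and 2.1% lower). Sfrp1 was called lower in KO and in R at each time, with KO levels of 84.7 and 126 and R levels of 19.0 and 29.7, against WT levels of 908 and 1242. Lef1 was called at 4 h, at 274 in KO and 216 in R, against 119.5 in WT (1.20 ± 0.28, limma adjusted p = 0.0054, and 0.86 ± 0.28, limma adjusted p = 0.043). Without the 5 arrays the Lef1 call held in KO (adjusted p = 0.032) and not in R (0.16), and in KO against WT cells Sfrp2 (0.038) and Dkk3 (0.0042) were called as well. Dkk2 had a difference of -0.32 ± 0.82 between R and WT at 4 h and was at least 2.82-fold lower in R at 24 h (limma adjusted p = 0.012). At 24 h all calls against WT held without the 5 arrays, and Dkk2 was then also called lower in KO (adjusted p = 0.034).

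**Figure D2:**
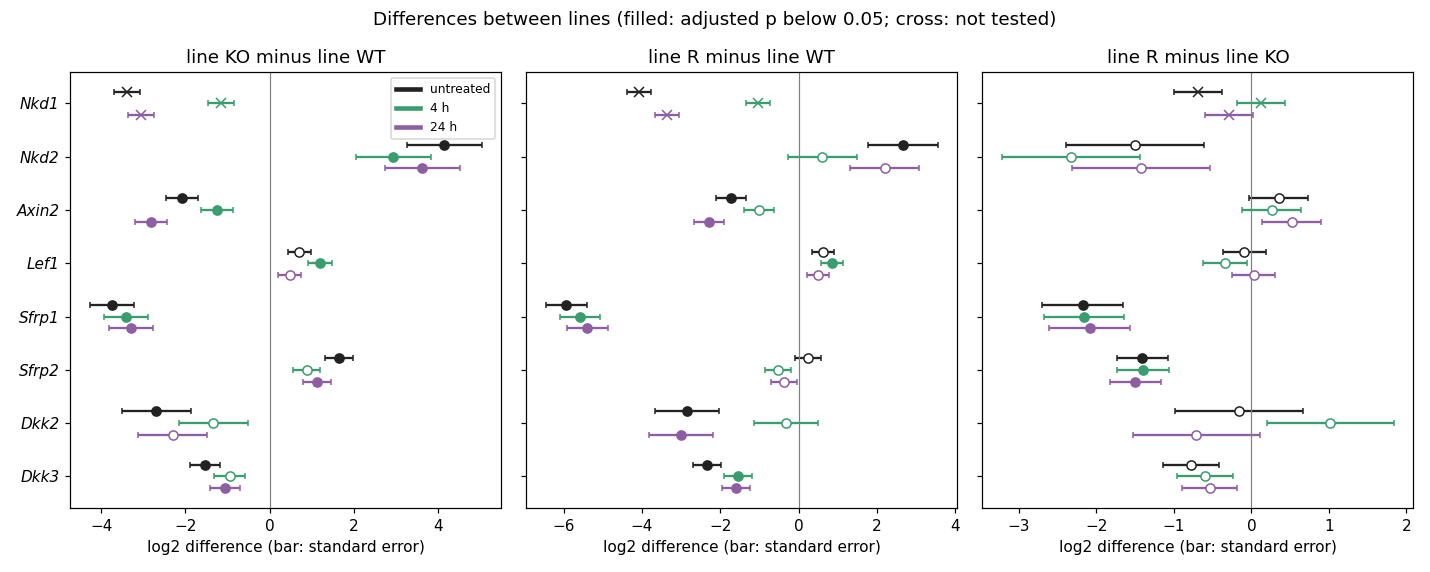
Log2 difference between lines for each gene, with bars for the standard error, in KO minus WT, R minus WT and R minus KO cells (panels) untreated, 4 h and 24 h after irradiation (colours); filled points passed an adjusted p of 0.05 and crosses mark Nkd1, which was not tested. Sfrp1 is filled at all 9 places, Nkd2 lies right of 0 in both comparisons with WT, and the Nkd1 crosses lie nearest 0 at 4 h in the comparisons with WT.

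Probe sets of a gene were then set side by side. In the fit over all 45037 probe sets, where 10.2% were called in untreated KO against WT cells and 11.2% in untreated R against WT cells, 4 of 5 Sfrp1 probe sets were called lower in KO and 5 of 5 in R. For Nkd2, 3 of 4 were called higher in KO cells, with differences of 4.16, 3.96 and 4.74, and 2 of 4 in R cells, with differences of 1.98 and 2.40. An x-type Nkd2 probe set, a design that may also bind other transcripts, was not called in either line, at 1.23 and 0.08. In R the brightest Nkd2 probe set, which carries the gene-level call, was not called in this fit either (2.67, adjusted p = 0.06). Both Dkk3 probe sets were lower in each line (-1.54 and -1.47 in KO, -2.33 and -2.13 in R). The second Axin2 probe set was below background in 8 of 9 groups and was not called.

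**Figure D3:**
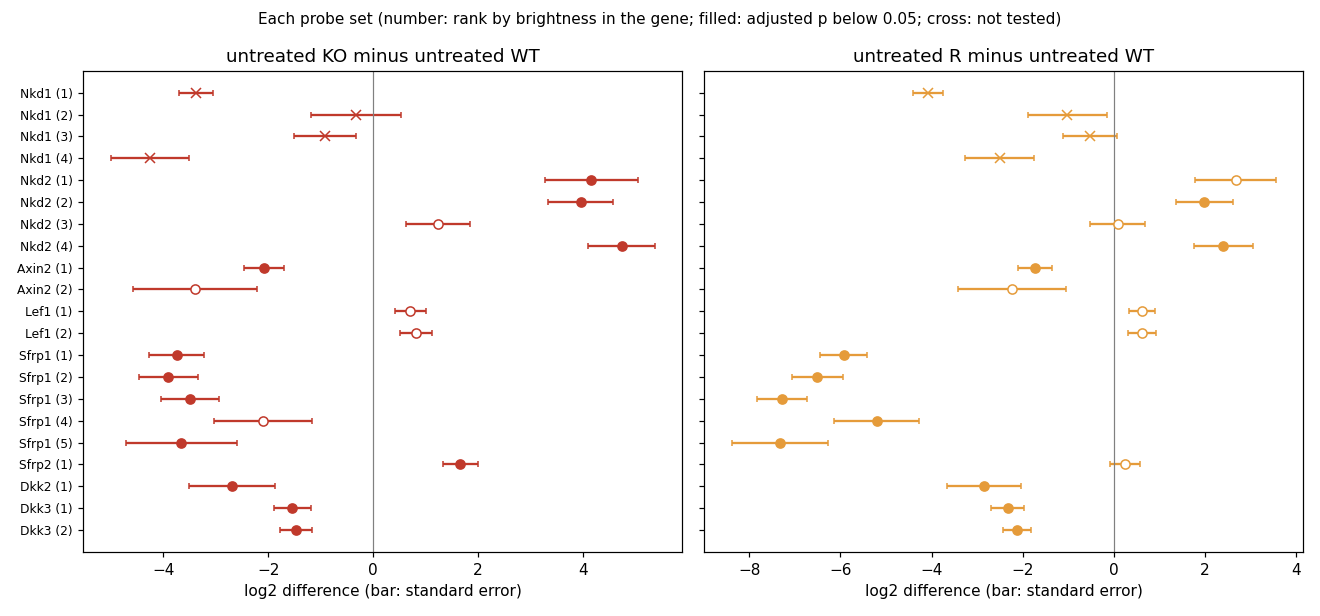
Log2 difference of each probe set in untreated KO minus WT and untreated R minus WT cells, with bars for the standard error; probe sets are numbered by brightness within a gene, filled points passed an adjusted p of 0.05 and crosses mark Nkd1. The 5 Sfrp1 probe sets lie left of 0 in both panels, and the third Nkd2 probe set lies nearest 0 of its 4.

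Irradiation was examined within each line against untreated cells of that line. None of the 7 genes was called by limma in any of the 6 comparisons, where 0.368% of all genes were called in KO cells at 4 h, 0% at 24 h, 0.978% in R cells at 4 h, 0% at 24 h, 3.25% in WT cells at 4 h and 0.0495% at 24 h. At an unadjusted p below 0.05 there were 4 of 7 in WT cells at 4 h and 0 of 7 in the other comparisons. The share of all genes at that unadjusted threshold is not given here, so the 4 of 7 cannot be set against the 3.25%. As a check of the treatment, Cdkn1a, the cell cycle inhibitor p21, rose in WT cells at 4 h (1.85 ± 0.39 SE, limma adjusted p = 0.015) with a difference of -0.01 in KO and 0.35 in R cells. Its response differences from WT at 4 h were not called (limma adjusted p = 0.54 for KO and 0.66 for R). At 24 h the Cdkn1a differences from untreated cells were 1.65 ± 0.39 in WT, 0.69 ± 0.39 in KO and 1.18 ± 0.39 in R cells. None of these was called (limma adjusted p = 0.15, 0.88 and 0.91).

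The 4 genes of WT cells at 4 h were Axin2, Sfrp1, Dkk2 and Dkk3, each with a lower level. Dkk3 was 376 at 4 h, against 853 untreated (-1.18 ± 0.36, limma adjusted p = 0.076), and the 4 h values of 259, 525 and 391 lay below the untreated 1039, 731 and 818 without overlap. Axin2 was 104 at 4 h, against 207 untreated (-1.00 ± 0.38, adjusted p = 0.16), with overlapping arrays. Sfrp1 was 908, against 2125 untreated (-1.23 ± 0.52, adjusted p = 0.22), also with overlap. Next, Dkk2 was 26.4, below background on all 3 arrays, against 92.9 untreated, at least 1.92-fold lower (adjusted p = 0.26) and without overlap. The share of all genes whose arrays do not overlap in this comparison is not given here, so the lack of overlap is only a description. Without the 5 arrays that stand apart the adjusted p-values were 0.11 for Dkk3, 0.064 for Axin2, 0.22 for Sfrp1 and 0.18 for Dkk2. The median of the 7 genes was -1.00 in WT cells at 4 h, against -0.01 over all genes, and 0.37 at 24 h. Dkk3 passed the threshold in 4 of its 38 alternatives, which are the intensity trend, both filters on dim genes and leaving out untreated R replicate 1, and its adjusted p over all of them ran from 0.026 to 0.34.

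In KO cells the medians of the 7 were -0.46 at 4 h and 0.07 at 24 h, and in R cells -0.41 and 0.18, against -0.03 at 4 h and 0.02 at 24 h over all genes in each. Sfrp1 had a difference of -0.90 ± 0.52 in KO cells at 4 h (limma adjusted p = 0.49), and -0.43 without the 5 arrays (0.75). In R cells Nkd2 had -0.96 ± 0.89 at 4 h (limma adjusted p = 0.67). Its other probe sets gave -1.37, -0.53 and -2.18 there, from 4 h levels below background. The second Dkk3 probe set gave -1.03 ± 0.31 in KO and -0.74 ± 0.31 in R cells at 4 h, against -0.98 ± 0.31 in WT cells. None of these probe sets was called in the fit over all probe sets. At 24 h in WT cells Axin2 was 256, against 207 untreated, and Dkk2 was 136, against 92.9 untreated, with adjusted p-values of 0.81 and 0.85. Their differences of 0.31 and 0.55 were -0.10 and 0.21 without the 5 arrays.

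The difference in response between lines was tested directly for the 7 genes. By limma, 0 of 7 were called in each of the 6 comparisons, where 0.011% of all genes were called for KO against WT and 0.0165% for R against WT at 4 h, 0% for R against KO at 4 h, and 0.0055% in each comparison at 24 h. At an unadjusted p below 0.05 there was 1, Dkk2 in R against WT at 4 h (2.54 ± 1.16, limma adjusted p = 0.82), and 0 in the other comparisons. That value rests on levels below background in both R groups and in WT at 4 h, and was 3.85 without the 5 arrays (adjusted p = 0.38). Again the share of all genes at an unadjusted p below 0.05 is not given here. Axin2 had response differences of 0.82 ± 0.53 for KO and 0.73 ± 0.53 for R against WT at 4 h. Dkk3 had 0.59 ± 0.51 and 0.77 ± 0.51. Leaving out the 5 arrays gave 1.23 and 1.41 for Axin2 and 0.09 and 0.11 for Dkk3, none of them called. The second Dkk3 probe set gave -0.05 ± 0.44 for KO and 0.24 ± 0.44 for R against WT at 4 h, also not called. The size of these errors means that differences of this order were not detectable with 3 arrays a group.

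**Figure D4:**
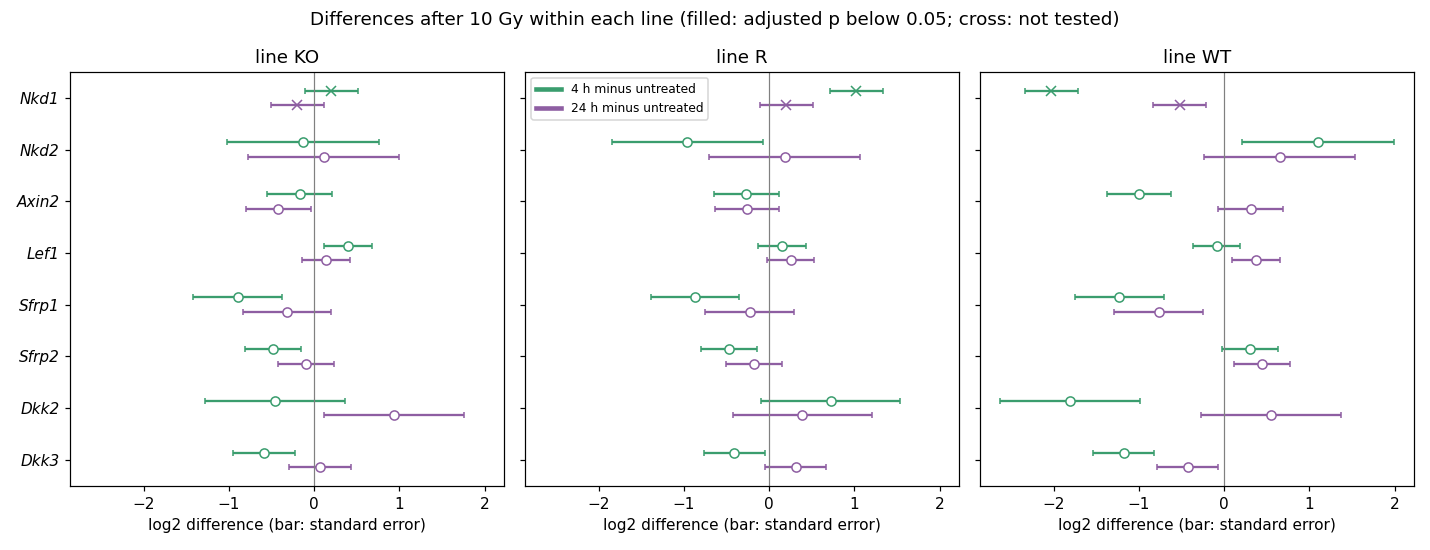
Log2 difference of each gene at 4 h and 24 h against untreated cells within the KO, R and WT lines, with bars for the standard error; open points did not pass an adjusted p of 0.05 and crosses mark Nkd1, which was not tested. In WT cells the 4 h points of Nkd1, Axin2, Sfrp1, Dkk2 and Dkk3 lie between -1.00 and -2.03 (for Dkk2 from arrays below background). Points are the brightest probe sets, and in KO and R cells none at 4 h lies below -0.96. Among probe sets not drawn, Nkd2 reached -2.18 in R cells and Dkk3 -1.03 in KO cells at 4 h.

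The rest of the pathway was read from lists of named genes, written with earlier results of these data known. Among 19 Wnt ligands, 0 were higher and 4 lower in untreated KO against WT cells, and 0 and 5 in untreated R against WT cells, with list medians of -1.07 and -0.60, against 0.00 to 2 decimals and 0.06 over all genes. Only 10 of the 19 had a group level above background, so the list medians rest in part on genes at background. Over all genes 7.77% were higher and 9.83% lower in KO, and 9.39% each way in R, and the list counts below are to be read against these shares. Wnt4 averaged 49.1 in KO and 61.4 in R, against 1689 in WT (34.4-fold and 27.5-fold lower, limma adjusted p = 1e-08 and 2.3e-08). Wnt11 was 73.5 in KO, against 333 in WT (-2.18 ± 0.27), and at least 6.9-fold lower in R. Wnt9a and Wnt5a, a ligand known mostly for signalling without beta-catenin, were also lower in both, and Wnt10a in R.

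R-spondins are secreted proteins that strengthen Wnt signals through Lgr receptors. Of 4, 1 was higher and 1 lower in each comparison with WT. Rspo1 lay between 4.23 and 36.6 in untreated KO cells and between 1.91 and 28.7 in untreated R cells, against 2830.3 to 3539 in untreated WT cells, at least 64.4-fold lower in both. Rspo2 went the other way, at 2328 in KO and 4175 in R, against 189.9 in WT (12.3-fold and 22-fold higher, limma adjusted p = 1.7e-06 and 9.6e-08). The WT line thus carried Rspo1 above its KO and R levels, and KO and R carried Rspo2 above its WT level.

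Of 21 Wnt receptors and co-receptors, 2 were higher and 8 lower in KO against WT cells, and 2 and 7 in R against WT cells, where 17.6% and 18.8% of all genes were called. The list also held Kremen1, Rnf43 and Znrf3, which are not receptors for Wnt ligands. Rnf43, among the 8, was below background on all arrays. Fzd6 was 238 in KO and 328 in R, against 1284 in WT (-2.43 ± 0.17 and -1.97 ± 0.17). Lgr6, an R-spondin receptor, was at least 14.4-fold lower in each, and Ror1, a receptor for Wnt5a, was at least 5.55-fold lower in each (limma adjusted p = 7.8e-05 in KO and 2.7e-05 in R). Lgr5 was 153 in KO and 19.0 in R, against 335 in WT, with a call in R against WT (limma adjusted p = 3.2e-06), none in KO against WT (0.13), and one in R against KO cells (at least 3.17-fold lower, limma adjusted p = 0.0014). The genes called higher in both lines were Lgr4 and Kremen1, named after their values were seen.

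Of 12 other secreted or membrane inhibitors, 0 were higher and 3 lower in KO against WT cells (Apcdd1, Sfrp4 and Frzb), and 0 and 1 in R against WT cells (Sfrp4), where 17.6% and 18.8% of all genes were called. Only 5 of the 12 had a group level above background. Sfrp4 was 91.0 in KO and 70.0 in R, against 643 in WT (7.07-fold and 9.19-fold lower). Of 14 genes of the destruction complex and Dishevelled, 0 were higher and 2 lower in KO (Amer1, Dvl2), and 1 higher and 1 lower in R (Apc2, Amer1). Apc2 was not called without the 5 arrays that stand apart (adjusted p = 0.27). Ctnnb1, which encodes beta-catenin, was 15927 in KO and 15147 in R, against 16649.7 in WT, with differences of -0.06 and -0.14 that were not called. Of 11 nuclear partners of beta-catenin, 1 was higher and 2 lower in each comparison, with Tcf7l1, a mostly repressive TCF factor, higher in both (0.70 ± 0.17 and 0.85 ± 0.17) and Tle1, a co-repressor, lower in both.

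Other Wnt target genes did not share 1 direction. Lgr5, Rnf43, Znrf3, Notum and Apcdd1 stand on this list and also on a list above. Among them Rnf43, called lower in KO, was below background on all arrays. Of 17, 3 were higher and 5 lower in untreated KO against WT cells, and 3 and 3 in untreated R against WT cells, where 7.77% and 9.83% of all genes were higher and lower in KO and 9.39% each way in R. Ccnd1, which encodes cyclin D1, was 1977 in KO and 3383 in R, against 6628 in WT (-1.74 ± 0.18 and -0.97 ± 0.18). Id2 was 211 in KO and 361 in R, against 1469 in WT (6.97-fold and 4.07-fold lower). Myc was 1278 in KO and 985 in R, against 589 in WT, and Ccn4, also known as Wisp1, was 4587 and 3453, against 1923 in WT, and both were called higher in both lines. Of 9 planar cell polarity genes, 0 were higher and 4 lower in KO, and 1 and 4 in R, with Celsr1 at least 9.55-fold lower and Daam2 lower in each (-2.64 ± 0.31 and -2.47 ± 0.31). Of the list genes called in either untreated comparison with WT, Rnf43 in KO and Apc2 and Prickle1 in R were not called without the 5 arrays (adjusted p = 0.056, 0.27 and 0.24).

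**Figure D5:**
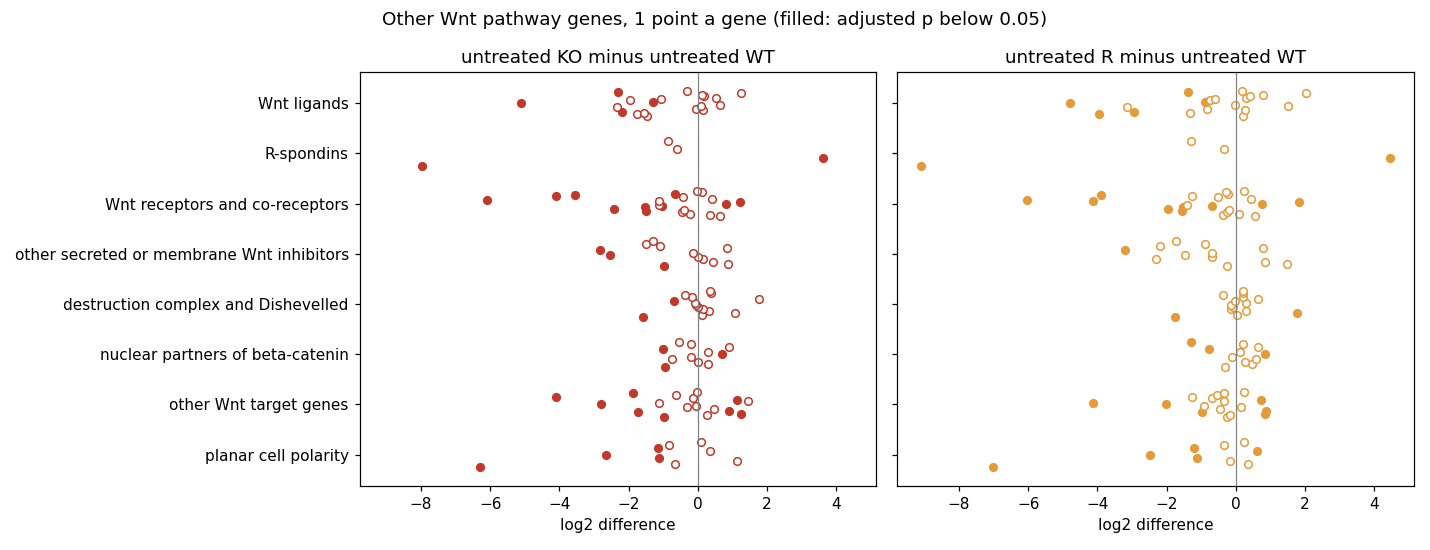
Log2 difference of every measured gene of 8 Wnt lists in untreated KO minus WT cells and untreated R minus WT cells; each point is a gene and filled points passed an adjusted p of 0.05. The R-spondins hold points at both ends, Rspo1 at -7.98 and -9.10 and Rspo2 at 3.62 and 4.46.

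After irradiation 4 of these genes were called in KO cells, 4 in R cells and 3 in WT cells, all at 4 h, where 0.368%, 0.978% and 3.25% of all genes were called. In KO cells Fzd5 (-0.92 ± 0.20, limma adjusted p = 0.045) and Ephb3 (-1.14 ± 0.22, 0.034) fell, and Apcdd1 (1.01 ± 0.20, 0.036) and Id2 (1.74 ± 0.37, 0.045) rose. In R cells Fzd2 (-0.70 ± 0.14), Tcf7l1 (-0.80 ± 0.17) and Ephb3 (-1.11 ± 0.22) fell and Fosl1 rose (1.96 ± 0.41), with limma adjusted p-values from 0.026 to 0.037. In WT cells Fzd2 (-0.54 ± 0.14) and Amer1 (-1.49 ± 0.27) fell and Myc rose (0.86 ± 0.22), with limma adjusted p-values from 0.007 to 0.042. Without the 5 arrays Fzd5 and Ephb3 in KO and Amer1 in WT were still called, and the other 8 had adjusted p-values between 0.053 and 0.21. Gained without them were Ccnd1 in KO (0.92, adjusted p = 0.015) and in R (0.71, 0.041) and Dvl2 in KO (0.99, 0.02). None of these lists had a call at 24 h or in a response difference.

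Across the 27 arrays Nkd1 ran with Axin2 (Pearson r = 0.85), Sfrp1 (0.83), Dkk3 (0.79) and Dkk2 (0.77) and opposite to Nkd2 (-0.70) on the log2 scale. These correlations are a description over arrays that fall into 3 lines, and the line means are part of them. Among all genes above background in some group, those nearest Nkd1 were Inmt, Prag1 and Gabarapl1 (each 0.93). Nearest Sfrp1 were Nsg1, Egfr and Rnf128 (each 0.96), and nearest Axin2 were Tmem98 (0.91), Amhr2 and Rab6b (each 0.90). Nearest Nkd2 was Ucn2 (0.87), nearest Lef1 was Galnt13 (0.86), nearest Sfrp2 was Gdnf (0.91), nearest Dkk2 was Rasgrf2 (0.82), and nearest Dkk3 were Tmem134 and Dcn (each 0.92).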

How the data were processed

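RNA of 27 samples was measured on Affymetrix arrays. The deposited values are linear intensity, scaled by the authors so that each array's mean after trimming 2% at each end is 500.0, as the values show. RMA and GCRMA appear in the submitters' processing notes, with no role given. A linear scale with array medians from 54.4 to 80.0 is not the form either gives, so the summary method is not given in the sources used here. Intensities have no counting depth, and the number of arrays limits the precision.

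Groups were taken from sample titles, because descriptions of 6 irradiated WT samples call them untreated. Replicates are biological per the labels. The members and gene lists were chosen with earlier results of these data known. From each list, up to 4 called genes with the smallest p were named. Of 45101 probe sets, 64 were controls, 34945 carried 1 gene symbol, 932 several and 9160 none in the platform annotation, and 34741 of the probe sets with 1 symbol matched RefSeq. Kremen2, Tcf7, Ephb2 and T were not analysed here.

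Values were taken to log2 with no offset or further normalization. Each gene's brightest probe set entered limma 3.58.1 (R 4.3.3), with 9 group means (18 residual and 1.39 prior degrees of freedom) and Benjamini-Hochberg adjustment over 18193 genes per comparison. The background of 48.3 came from 351 values of 13 Y-linked probe sets, leaving out s and x types, with which it would be 69.9. The fit was tested on simulated data. With 3 arrays against 3, no exact permutation test can pass 0.05, so none was made. Replicate numbers were not used to pair the samples in the main fit. Over 108 same-numbered pairs the correlation of deviations ran from -0.38 to 0.46 (median 0.01), with 19 over 0.1. These correlations cannot decide whether the numbers pair the samples. Alternatives changed the block, the arrays in the fit, the prior, filters, scaling, log offset, probe sets and the arrays left out.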

Additional observations from a re-analysis of the deposited data

How the results depend on the processing

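Fitting only the compared arrays, with fewer residual degrees of freedom, left 2 of 7 genes called in untreated KO against WT (6 in the full fit), 2 in R against WT (5) and 0 in R against KO (2), while 6.91%, 6.19% and 0.0879% of all genes were called in these fits. Among genes above the median level, which kept 4 of the 7, these counts were 3 and 2 for KO and R against WT, where 29% and 31.3% of all genes kept were called. Leaving out 1 array gave 5 to 6 for KO against WT, 3 to 5 for R against WT and 0 to 2 for R against KO. In WT cells at 4 h the count was 0, and 1 (Dkk3) with an intensity trend, with either filter on dim genes (4.86%, 12.7% and 8.17% of genes called), and 0 to 1 on leaving out 1 array. Without the 5 arrays that stand apart R against KO had 1. The same lines at 4 h, chosen after seeing the data, gave 3 for R against WT. Of the 7 genes, none that was called changed sign in any alternative. Equal array medians moved the median of all genes to 0.22 in untreated KO against WT, 0.18 in R against WT and 0.12 in WT cells at 4 h. A replicate block, although it is not known whether the numbers pair the samples, gave 6, 4 and 2 calls in the 3 comparisons of untreated lines and 0 in each irradiation comparison. The call lost under the block was Nkd2 in R (adjusted p = 0.056). For the fits that left out 1 array or the 5 arrays, and for the block, the shares of all genes called are not given here. Without those shares beside them, changes in these counts may follow changes in the call rate over all genes, which was not examined here. Each array correlated best with its own number in 13 of 27 cases. In the untreated comparisons with WT, the Nkd2 and Dkk2 calls, and the Sfrp1 call in R, had 1 group below background. The mean of all 4 Nkd1 probe sets gave -1.21 in WT cells at 4 h in place of -2.03. The cause of these changes was not tested beyond what each alternative removes.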
